A study of Homo sapiens
Mus musculus and Mus musculus and Homo sapiens with 16 samples.

Results

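REC-1 is a human mantle cell lymphoma cell line, and MS-5 is a mouse bone marrow stromal cell line on which lymphoma cells can settle. Transcript levels were compared between REC-1 cells that had bound to an MS-5 layer in coculture (Adh, n = 4) and REC-1 cells grown alone (Sep, n = 4), each after 24 h of incubation and with no drug, knockdown or other agent in either group. These 8 libraries, chosen by their titles, are among 16 in the series, which also holds the REC-1 cells left in suspension in the cocultures (Susp, n = 4) and MS-5 cells (n = 4). The question was how the lymphoma cells change from life alone to life attached to stroma, whereas Adh against Susp asks about attachment inside a coculture. All 4 Adh libraries were made from lysates that also held MS-5 RNA, and reads were assigned to human or mouse by sequence before counting. Adh and Sep thus differ in attachment, in sharing medium with stromal cells and in the mixture of species. The study kept its lymphoma lines in RPMI and its cocultures under the conditions of the stromal cells, so the culture medium may also differ. The replicates are described as independent experiments, all made with a single lymphoma line on a single stromal line.

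Human counts ran from 9325412 to 12597891 in the Sep libraries and from 7758979 to 13241751 in the Adh libraries, where the human share of all counts was 18.3 to 28.2%. The first principal component over the 8 libraries held 32.6% of the variance and separated the groups, with Adh replicate 3 at one end and Sep replicate 1 nearest to the Adh libraries. REC-1 identity was evident in both groups, since all 7 B cell markers tested were present and summed to 4425 to 4672 CPM in Sep and 4462 to 4888 CPM in Adh. The mantle cell lymphoma markers CCND1 and SOX11 were counted in every library, whereas CD5 had 0 to 8 counts. Markers of stroma were low in the human counts, with 20 genes summing to 21.0 to 29.4 CPM in Sep and 15.9 to 21.0 CPM in Adh. LUM, THY1, PDGFRA, VCAM1, CXCL12 and COL1A2 had 0 human counts in all 8 libraries. None of the 6 stromal markers tested was called, nor the single tested marker of T cells, of macrophages or of endothelium, and no erythroid marker passed the filter.

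As background, mantle cell lymphoma cells in lymph nodes and bone marrow sit against stromal cells that offer adhesion ligands, chemokines and survival signals, and cells held there are less exposed to therapy than cells in blood. Chemoattractant and lipid receptors steer B cells to and from such niches, costimulatory ligands such as CD86 tie them to T cells, and cytokine receptors and kinases relay survival signals. Mitochondria carry a small genome of their own that encodes core subunits of the respiratory chain, whose other subunits come from the nucleus.

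Levels are given as CPM, human counts scaled to a common total of 1000000 per library with TMM factors, and a gene is said to have been called, to have risen or to have fallen only where the edgeR adjusted p was at most 0.05 and the fold change at least 1.5. Of 12861 human genes tested, 309 (2.40%) were called between Adh and Sep. In bulk RNA, fewer cells of a kind and less RNA per cell cannot be told apart. There were 75 genes (0.583%) that rose in Adh and 234 (1.82%) that fell, and 22 risers and 107 fallers changed at least 2-fold. The shares of 0.583% and 1.82% are the background for the calls counted in each gene list. The median log2 change over all tested genes was -0.0034, and 2596 genes (20.2%) had an unadjusted p under 0.05. In 282 of the 309 calls the Adh and Sep libraries did not overlap in CPM, as was so for 2022 of all tested genes (15.7%). Protein-coding genes made up 92% of the risers and 69.7% of the fallers, against 87.7% of the genes not called. The fallers here include the 13 protein genes of the mitochondrial genome. The count depended on single libraries: it was 519 without Susp replicate 2, 490 without Sep replicate 1, 143 without Sep replicate 2, 173 without Sep replicate 4, 203 without Adh replicate 1 and 192 without Adh replicate 3. Susp replicate 2 is in neither group and enters through the low-count filter, the scaling and the shared estimate of the spread. Without it 13084 genes were tested. Of 75 named genes that were called, 48 kept their call whichever 1 of the 12 REC-1 libraries was left out, and the loss is stated beside each of the others that the text describes.

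**Figure D1:**
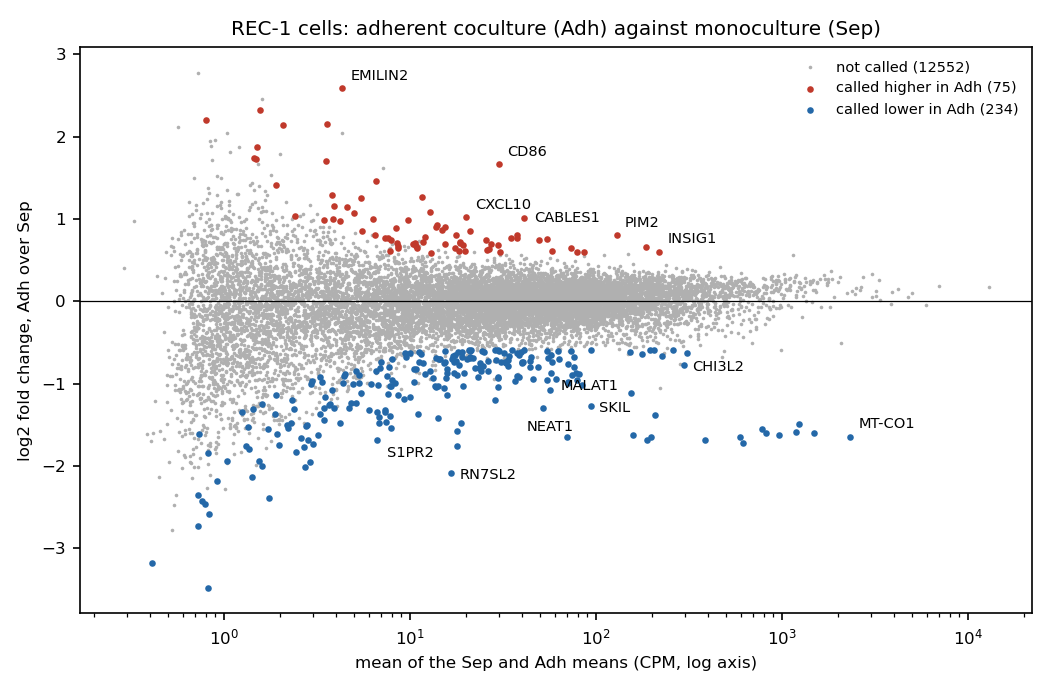
Log2 fold change of Adh over Sep (y axis) against the mean level in CPM on a log axis (x axis) for the 12861 genes tested, 1 point per gene, with the 75 called higher in red and the 234 called lower in blue. Fallers outnumber risers, and the row of blue points at high CPM near -1.6 holds the genes of the mitochondrial genome.

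Immune ligands and cytokine receptors were among the risers. CD86, the ligand of CD28 and CTLA4 on T cells, measured 16.4, 12.7, 16.0 and 12.4 CPM in Sep replicates 1 to 4 and 39.0, 53.2, 48.6 and 41.8 CPM in Adh. Every Adh library thus lay above 2 times the highest Sep library, and the log2 fold change was 1.67 ± 0.13 (SE, adjusted p = 5.35e-06). CXCL10 and CXCL9, interferon-inducible chemokines that recruit cells bearing CXCR3, rose together. CXCL10 stood at 16.5, 14.6, 11.5 and 10.4 CPM in Sep against 26.6, 27.0, 22.6 and 31.8 CPM in Adh. CXCL9 stood at 8.98, 10.9, 9.83 and 8.93 CPM in Sep against 20.9, 16.8, 20.6 and 14.9 CPM in Adh. Neither gene had overlapping groups, and the log2 changes were 1.02 ± 0.16 (adjusted p = 0.00161) and 0.92 ± 0.14 (adjusted p = 0.00128). IL7R, the receptor chain for interleukin-7, went from 8.98, 6.69, 10.9 and 6.38 CPM to 16.8, 19.8, 17.0 and 15.7 CPM, without overlap and with a log2 change of 1.08 ± 0.17 (adjusted p = 0.00178). TNFSF9, the ligand of the costimulatory receptor CD137, was called at 0.72 ± 0.19 (adjusted p = 0.0438), but lost the call in 10 of 12 fits that each left out 1 library. As lists, 22 tested costimulatory and TNF family genes held 2 risers and no faller (median log2 change 0.27), 19 chemokines and cytokines held 2 risers and 1 faller (median 0.32), and 23 cytokine receptors held 1 riser (median 0.09). Over all tested genes, 0.583% rose and 1.82% fell.

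The stretches upstream of these genes are shown because CXCL9 and CXCL10 moved together and because CD86 and S1PR2 were the protein-coding genes of the nucleus with the largest rise and fall at 10 CPM or more. Each run is the 250 bases before the annotated start (GENCODE release 44 on hg38), 5′ to 3′ on the gene's strand, at chr4:76023498-76023747 (minus strand) for CXCL10, chr4:76007510-76007759 (minus strand) for CXCL9, chr3:122055112-122055361 (plus strand) for CD86 and chr19:10231332-10231581 (minus strand) for S1PR2. Capitals mark matches, on either strand, to an interferon-stimulated response element core (GAAA, any 2 bases, GAAA), a gamma-activated site (TTC, any 3 bases, GAA) or a kB-like motif (GGGA, any 2 bases, T, any base, CC). The motifs were searched separately, so that their matches may overlap.
CXCL10: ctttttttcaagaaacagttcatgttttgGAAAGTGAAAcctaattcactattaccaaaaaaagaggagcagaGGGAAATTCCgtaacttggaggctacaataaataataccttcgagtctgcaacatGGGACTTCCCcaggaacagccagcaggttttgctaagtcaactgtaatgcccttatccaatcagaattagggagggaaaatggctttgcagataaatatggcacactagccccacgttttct
CXCL9: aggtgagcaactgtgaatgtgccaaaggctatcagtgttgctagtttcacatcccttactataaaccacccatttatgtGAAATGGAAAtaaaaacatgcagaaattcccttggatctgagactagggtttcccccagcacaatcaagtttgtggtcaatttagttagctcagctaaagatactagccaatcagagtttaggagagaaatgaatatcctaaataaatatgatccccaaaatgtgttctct
CD86: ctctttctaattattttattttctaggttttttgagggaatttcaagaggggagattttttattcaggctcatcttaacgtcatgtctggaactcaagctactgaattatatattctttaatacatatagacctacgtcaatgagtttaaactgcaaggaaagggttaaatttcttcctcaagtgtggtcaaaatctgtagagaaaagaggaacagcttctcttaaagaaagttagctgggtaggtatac
S1PR2: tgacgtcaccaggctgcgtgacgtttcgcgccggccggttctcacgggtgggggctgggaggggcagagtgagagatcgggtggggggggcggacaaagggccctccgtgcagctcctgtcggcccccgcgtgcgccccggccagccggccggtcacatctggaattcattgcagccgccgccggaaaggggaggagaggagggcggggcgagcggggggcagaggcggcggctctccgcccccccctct
CXCL10 held 1 response element core, GAAAGTGAAA, and 2 kB-like stretches, GGGAAATTCC and GGGACTTCCC, the latter matching on both strands. CXCL9 held 1 response element core, GAAATGGAAA, and the CD86 and S1PR2 windows held no match to these letters. Of 11201 tested protein-coding genes with such a window, 294 (2.62%) held the response element core, as did 4 of 69 risers (5.8%) and 4 of 150 fallers (2.67%). The gamma-activated site was in 5.72% of all windows, 8.7% of risers and 4.67% of fallers, and the kB-like motif in 4.19%, 5.8% and 7.33%. A match describes letters and is not evidence of binding.

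Few interferon-stimulated genes were called beside these chemokines. Of 46 listed, 31 passed the filter on low counts, 4 rose, 1 fell, and the median log2 change was 0.08. Without CXCL9 and CXCL10, 2 of 29 tested genes rose, 1 fell, and the median was 0.03. Of all tested genes, 0.583% rose and 1.82% fell. The list was chosen with earlier results of these data known, so its larger share of risers is a description and adds no separate support. IFITM1, a membrane restriction factor, rose from 2.99, 2.43, 1.67 and 3.11 CPM to 5.11, 4.43, 5.01 and 6.16 CPM, but its call was lost when any 1 of 4 libraries was left out (adjusted p = 0.0849 without Sep replicate 2), and its reads could be shared with close paralogs. MX2, a dynamin-like antiviral GTPase, rose from 12.3 to 14.4 CPM in Sep to 20.6 to 22.7 CPM in Adh (log2 change 0.65 ± 0.13, adjusted p = 0.0101, or 0.0523 without Sep replicate 2). IRF9, the DNA-binding subunit of the factor that acts on response elements, fell: it had 2.13, 5.44, 4.39 and 3.59 CPM in Sep and 1.95, 1.06, 0.642 and 0.385 CPM in Adh (log2 change -1.83 ± 0.42, adjusted p = 0.0249). The IRF9 groups lay close to each other at low levels, and the call was lost in 6 of 12 fits that left out 1 library.

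Several genes of low level rose most in proportion. EMILIN2, an extracellular matrix glycoprotein, was at 1.10, 1.67, 0.837 and 1.28 CPM in Sep and at 9.17, 7.70, 5.91 and 6.93 CPM in Adh, a 6.03-fold rise (log2 change 2.59 ± 0.23, adjusted p = 1.85e-05). LRRC32, which holds latent TGF-beta at the cell surface, was at 0.945, 2.26, 0.837 and 1.12 CPM in Sep and at 4.21, 6.84, 8.74 and 3.59 CPM in Adh (2.15 ± 0.34, adjusted p = 0.00178). Neither pair of groups overlapped, although the Adh libraries varied more for LRRC32 than for EMILIN2. TNFRSF18, a costimulatory receptor of the TNF receptor family, rose from at most 1.04 CPM to 2.03 to 3.08 CPM (2.33 ± 0.48, adjusted p = 0.0134, or 0.0607 without Sep replicate 2). PDE4A, a phosphodiesterase that breaks down cyclic AMP, rose from 0.628 to 2.39 CPM to 4.11 to 7.41 CPM (1.71 ± 0.33, adjusted p = 0.00883). The stromal cells expressed the mouse genes of the same name: over the Adh libraries EMILIN2 had 20660 mouse and 302 human counts, LRRC32 22940 and 223, and PDE4A 4397 and 213, whereas CD86, IL7R and CXCL9 had 0 mouse counts and CXCL10 had 1. The suspended cells, taken off the layer, had human levels of 7.81 ± 0.810 CPM for EMILIN2, 5.78 ± 1.07 CPM for LRRC32 and 3.66 ± 1.02 CPM for PDE4A. The part of mouse reads in the Adh values of these 3 genes was not tested. Mouse counts exceeded human counts for 7556 of 11230 tested protein-coding genes of the nucleus. Among them were the risers TRIB1 (1726 mouse and 700 human counts) and HMCES (3232 and 772). The fallers S1PR2 (7216 and 120), ELK3 (26543 and 161) and CSF1 (77819 and 941) were others, and mouse reads in their values were not tested either.

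PIM2, a survival kinase of lymphoid cells, was a riser of high level, with 87.3, 94.6, 96.5 and 98.8 CPM in Sep and 160, 165, 148 and 185 CPM in Adh (log2 change 0.80 ± 0.10, adjusted p = 0.000385). The 4 Sep libraries lay within a narrow band below all Adh libraries. CABLES1, which links cyclin-dependent kinases to other kinases, rose from 23.7 to 31.6 CPM to 47.9 to 58.4 CPM (1.01 ± 0.12, adjusted p = 0.000313). TRIB1, a pseudokinase that targets transcription factors for degradation, rose from 8.53 to 11.1 CPM to 15 to 22.4 CPM (0.90 ± 0.16, adjusted p = 0.00369). PIK3CG, the catalytic subunit of PI3K gamma, was called at 1.25 ± 0.28 (adjusted p = 0.0211) and lost the call when any 1 of 4 libraries was left out, with an adjusted p of 0.0914 without Sep replicate 2.

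Single genes of lipid handling and metal transport changed in either direction. MGLL, which hydrolyses monoacylglycerols including an endocannabinoid, stood at 15.7, 13.3, 14.2 and 16.3 CPM in Sep and 24.1, 28.2, 30.3 and 25.7 CPM in Adh (log2 change 0.86 ± 0.12, adjusted p = 0.000491). FADS1, a desaturase of polyunsaturated fatty acids, rose from 24.3 to 32.8 CPM to 43.8 to 50.4 CPM (0.81 ± 0.14, adjusted p = 0.00314), with 56228 mouse and 1861 human counts over the Adh libraries. INSIG1, which retains the sterol sensor complex in the endoplasmic reticulum, was the 1 gene called among 27 tested genes of cholesterol synthesis and sterol control, whose median log2 change was 0.22. It went from 145 to 189 CPM to 242 to 287 CPM (0.60 ± 0.10, adjusted p = 0.00244), close to the 1.5-fold limit, and fell under that limit without Sep replicate 2, Adh replicate 3 or Adh replicate 4 and after correction for GC content and exon length (0.52). SLC39A8, a zinc and manganese importer, rose from 33.2 to 43.8 CPM to 60.6 to 65.4 CPM (0.75 ± 0.10, adjusted p = 0.000385). CPT1A, the gatekeeper enzyme for fatty acid entry into mitochondria, moved the other way, from 301, 289, 259 and 269 CPM in Sep to 190, 184, 166 and 163 CPM in Adh (-0.67 ± 0.08, adjusted p = 0.000385). CNR1, a cannabinoid receptor, fell from 99.0 to 105 CPM to 50.9 to 62.2 CPM (-0.87 ± 0.13, adjusted p = 0.00112).

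Matrix and adhesion genes gave a small number of calls. Among 35 tested integrins, adhesion molecules and tetraspanins, 2 rose, 1 fell, and the median log2 change was 0.10. For all tested genes the shares were 0.583% and 1.82%. HAPLN1, which links hyaluronan to proteoglycans, stood at 12.5, 8.79, 12.1 and 8.93 CPM in Sep and 22.9, 20, 15.5 and 18.2 CPM in Adh. The groups did not overlap, and the log2 change was 0.86 ± 0.17 (adjusted p = 0.0112, or 0.0600 without Sep replicate 2). The HAPLN1 call was lost without Sep replicate 2 and also without Sep replicate 4. SPN, the sialomucin CD43 that keeps leukocyte surfaces apart, fell from 90.1, 95.1, 107 and 93.7 CPM to 51.9, 48.8, 53.4 and 53.6 CPM (-0.89 ± 0.09, adjusted p = 5.94e-05). TSPAN13, a tetraspanin, was called at 0.70 ± 0.18 (adjusted p = 0.0426), and Adh replicate 4 at 8.98 CPM lay near the Sep libraries at 7.58 to 8.70 CPM. Its call was lost in 8 of 12 fits that left out 1 library. SRGN, the core protein of an intracellular proteoglycan, rose from 35.4 to 48.2 CPM to 62.0 to 72.2 CPM (0.76 ± 0.13, adjusted p = 0.00369). CD44, the hyaluronan receptor, passed the p threshold (adjusted p = 0.0363) with a log2 change of 0.43 ± 0.11, under the fold limit, at 87.7 ± 11.2 CPM (SD, n = 4) in Sep and 118 ± 5.33 CPM in Adh. ICAM1, an integrin ligand, was at 67.0 ± 8.17 and 65.1 ± 6.66 CPM (-0.04 ± 0.12, adjusted p = 0.879).

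NLRP7 and NLRP11, members of the NOD-like receptor family that lie on chromosome 19, both rose. NLRP7 went from 5.83, 7.03, 6.49 and 7.97 CPM to 15.8, 13.5, 19.7 and 17.1 CPM (1.26 ± 0.17, adjusted p = 0.000414). NLRP11 went from 20.4, 18.4, 18.1 and 19.5 CPM to 29.6, 32.7, 28.8 and 36.6 CPM (0.74 ± 0.11, adjusted p = 0.00124). In both genes every Adh library exceeded every Sep library. HMCES, which protects abasic sites in single-stranded DNA, rose from 9.04 to 14 CPM to 16.0 to 22.9 CPM (0.91 ± 0.18, adjusted p = 0.00939), and C1orf21, an uncharacterised gene, rose from 4.85 to 9.63 CPM to 12.3 to 13.6 CPM (0.99 ± 0.19, adjusted p = 0.00753).

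**Figure D2:**
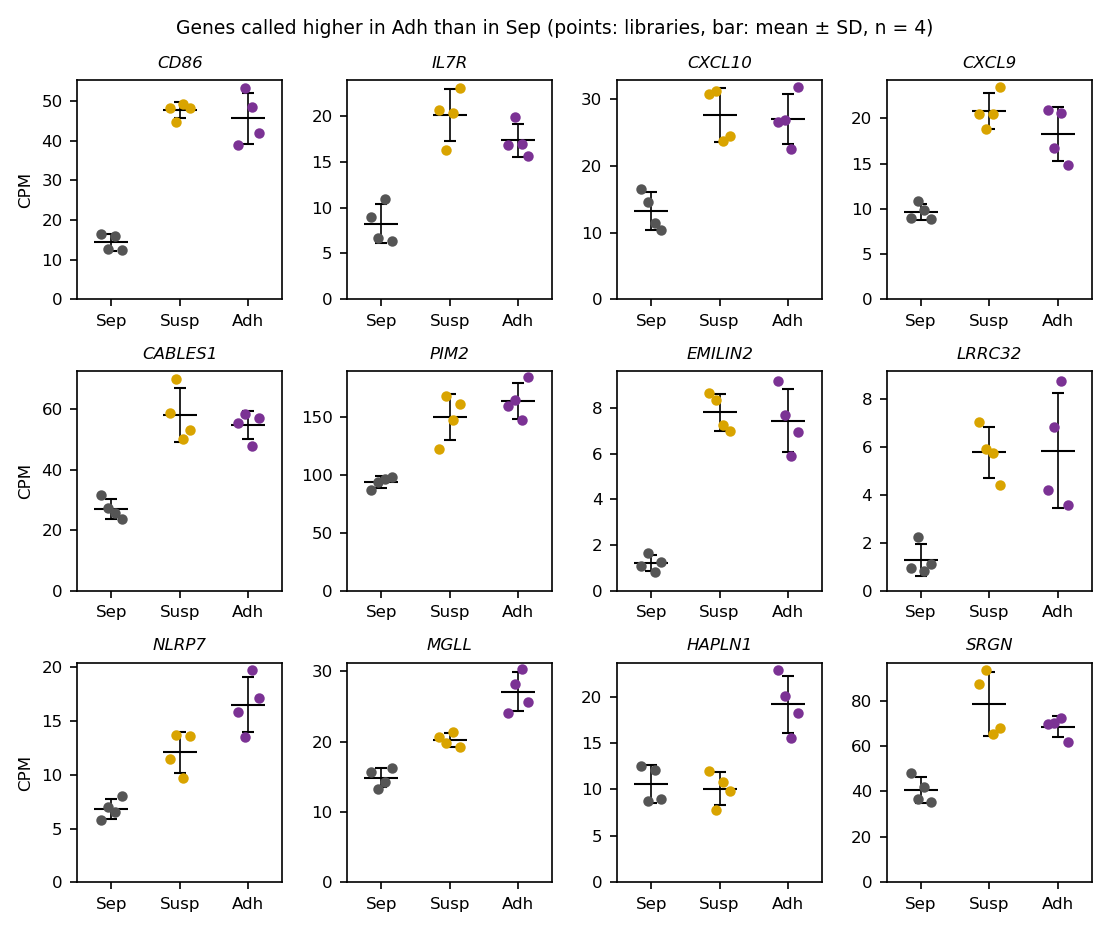
Level in CPM (y axis) of 12 genes called higher in Adh than in Sep, with 1 point per library and the mean ± SD (n = 4) for Sep, Susp and Adh. CD86 is near 14.4 CPM on average in Sep and near 47.7 and 45.7 CPM in Susp and Adh, whereas HAPLN1 is near 10.6 and 10.1 CPM in Sep and Susp and 19.2 CPM in Adh.

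Outside the mitochondrial genome, S1PR2 had the largest fall of the called protein-coding genes at 10 CPM or more. S1PR2, a sphingosine-1-phosphate receptor that restrains B cell migration through G-alpha-13, stood at 11.1, 9.54, 9.42 and 10.3 CPM in Sep and 2.10, 3.66, 3.08 and 3.85 CPM in Adh, a 3.22-fold fall (log2 change -1.69 ± 0.23, adjusted p = 0.000462). Its relative S1PR1, the egress receptor, had 144 ± 6.57 and 136 ± 6.27 CPM (-0.07 ± 0.09, adjusted p = 0.700). The list of chemotactic and S1P receptors and the G-alpha-13 pathway had 20 tested members, of which S1PR2 fell and 2 regulators of G protein signalling rose, with a median of 0.04. RGS2 rose from 13.2 to 19.3 CPM to 22.1 to 25.1 CPM (0.61 ± 0.14, adjusted p = 0.0242, or 0.104 without Sep replicate 2). The RGS2 call was lost in 5 of 12 fits that left out 1 library and, by fold, after the correction for GC content and exon length (0.54). RGS18 rose from 3.93 to 7.72 CPM to 8.74 to 15.7 CPM (0.89 ± 0.24, adjusted p = 0.0482), a call lost in 10 of 12 fits that left out 1 library. RGS13, of the same family, had 39.8 ± 3.13 and 50.8 ± 4.35 CPM and was not called (0.35 ± 0.10, adjusted p = 0.0659), and CXCR4, the CXCL12 receptor, had 50.5 ± 3.36 and 39.5 ± 4.49 CPM (-0.36 ± 0.10, adjusted p = 0.0622).

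SKIL, a repressor of SMAD factors and itself a TGF-beta target, fell from 158, 134, 119 and 120 CPM in Sep to 63.9, 52.8, 56.3 and 46.7 CPM in Adh. No library overlapped, and the log2 change was -1.27 ± 0.17 (adjusted p = 0.000524). TGIF1, another SMAD corepressor, fell from 15.5 to 18.3 CPM to 8.21 to 13.2 CPM (-0.68 ± 0.16, adjusted p = 0.0263, or 0.0999 without Sep replicate 2), a call lost in 5 of 12 fits that left out 1 library. The other 23 of 25 tested TGF-beta and BMP genes were not called, with a list median of 0.02. ELK3, an ETS factor that works with serum response factor, went from 15.2, 11.1, 11.5 and 9.41 CPM to 5.04, 3.08, 3.47 and 4.49 CPM (-1.54 ± 0.22, adjusted p = 0.000621). CIITA, the coactivator that drives MHC class II transcription, went from 42.5, 64.2, 39.0 and 55.4 CPM to 25, 29.4, 28.3 and 24.1 CPM (-0.91 ± 0.15, adjusted p = 0.00177). It was the 1 member called of 11 tested MHC class II presentation genes, whose median log2 change was 0.13. Another 6 of the 17 listed did not pass the filter on low counts: HLA-DRB1, HLA-DRB5, HLA-DPB1, HLA-DQA1, HLA-DQB1 and HLA-DOA. TMEM132B, a transmembrane protein gene, fell from 18.6 to 24.3 CPM to 6.67 to 8.74 CPM (-1.42 ± 0.18, adjusted p = 0.000385).

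Among surface and signalling genes of B cells, LAPTM5, a lysosomal protein that lowers B cell receptor levels, fell from 87.5, 69.6, 68.8 and 70.7 CPM to 44.2, 41.6, 37.0 and 39.3 CPM (-0.87 ± 0.11, adjusted p = 0.000385). PTPN7, a haematopoietic tyrosine phosphatase that acts on MAP kinases, fell from 76.7 to 106 CPM to 44.8 to 49.6 CPM (-0.98 ± 0.13, adjusted p = 0.000385). CHI3L2, a chitinase-like secreted protein, fell from 336 to 442 CPM to 212 to 230 CPM (-0.78 ± 0.09, adjusted p = 0.000235). Complement receptor CR1 fell from 42.5 to 53.8 CPM to 26.9 to 31.9 CPM (-0.74 ± 0.14, adjusted p = 0.00532). Pattern recognition was represented by CD180, which fell from 80.6 to 100 CPM to 52.3 to 67.0 CPM (-0.60 ± 0.12, adjusted p = 0.0112), and by TLR2, which fell from 12.8 to 14.8 CPM to 6.80 to 10.7 CPM (-0.61 ± 0.16, adjusted p = 0.0419). Without single libraries CD180 lost its call in 3 of 12 fits and TLR2 in 9 of 12. Of 31 tested B cell receptor and coreceptor genes, the inhibitory FCRL2 (312 ± 19.8 against 207 ± 21.6 CPM, -0.59 ± 0.09, adjusted p = 0.00128) and FCRL3 (377 ± 38.6 against 243 ± 39.4 CPM, -0.63 ± 0.12, adjusted p = 0.00882) fell and none rose, with a median of -0.05. Both lay close to the fold limit and dropped under it in 5 and 3 of the 12 fits that left out 1 library. CSF1, the macrophage growth factor, fell from 31.9, 42.9, 34.7 and 35.3 CPM to 27.0, 18.1, 20.6 and 30.0 CPM (-0.60 ± 0.15, adjusted p = 0.0340, or 0.138 without Sep replicate 2). Its call was lost in 5 of 12 fits that left out 1 library, and the gene was under the fold limit after a correction for GC content and exon length (-0.55).

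**Figure D3:**
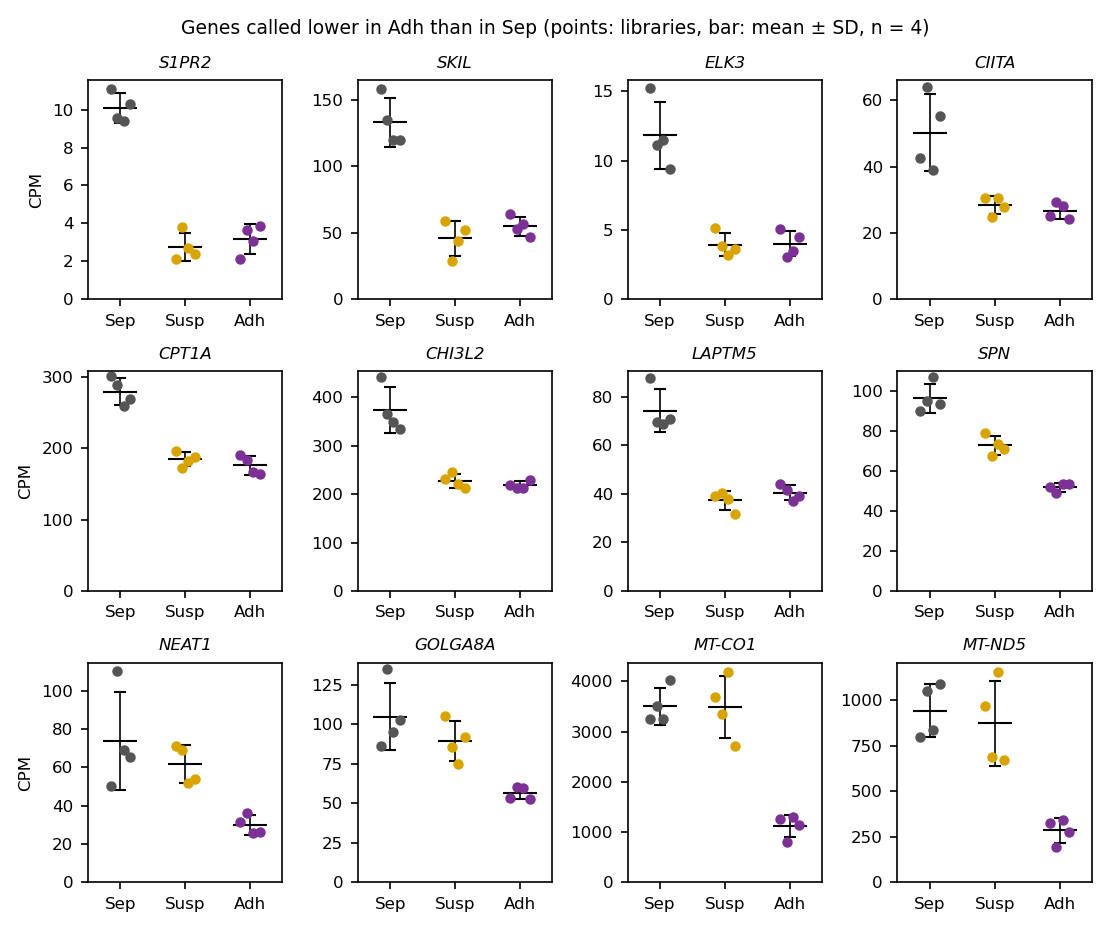
Level in CPM (y axis) of 12 genes called lower in Adh than in Sep, with 1 point per library and the mean ± SD (n = 4) for Sep, Susp and Adh. S1PR2, SKIL, ELK3, CIITA, CPT1A, CHI3L2 and LAPTM5 sit at similar levels in Susp and Adh, whereas the Susp libraries of MT-CO1 and MT-ND5 average 3493 and 872 CPM against 1124 and 286 CPM in Adh.

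The 13 protein genes of the mitochondrial genome fell together and were among the most abundant fallers. MT-CO1, the catalytic subunit of cytochrome c oxidase, went from 3248, 3510, 3252 and 4028 CPM in Sep to 1260, 797, 1294 and 1145 CPM in Adh (log2 change -1.64 ± 0.15, adjusted p = 1.85e-05). All 13 were called, with changes of -1.72 to -1.38 and a median of -1.62. MT-RNR2, the large ribosomal RNA of the same genome, went from 1902, 1540, 1663 and 2010 CPM to 645, 356, 808 and 560 CPM (-1.59 ± 0.18, adjusted p = 0.000226). As a share of human counts the mitochondrial genome took 1.56 to 2.02% in Sep and 0.362 to 0.683% in Adh, a difference of -1.16 percentage points (two-sided exact permutation p = 0.0286, the smallest that 4 against 4 allows, and 0.05 after adjustment over 7 library measures). No test of such shares was planned, and the classes were chosen with earlier results of these data known. The p therefore adds no separate support to the calls. The Susp share was 1.31 to 2.17%. MTATP6P1, MTND2P28 and MTCO1P12, nuclear pseudogene copies of mitochondrial genes on chromosome 1, fell by 1.65, 1.57 and 1.69 on the log2 scale, and reads of these near-identical copies cannot be told apart from those of the mitochondrial genome with certainty. MTCO1P12 lost its call in 5 of 12 fits that left out 1 library. Since the Adh libraries held RNA of both species and the Sep libraries of REC-1 cells alone, attachment and the sorting of reads by species cannot be told apart here.

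The nuclear subunits of the same respiratory complexes showed no call in 75 tested genes. Their log2 changes were above 0 in 69 genes and had a median of 0.26, against -0.0034 for all tested genes, and 37 had an unadjusted p under 0.05, as did 20.2% of all tested genes. ATP5B, a catalytic subunit of ATP synthase, had 2712 ± 67.9 CPM in Sep and 3411 ± 112 CPM in Adh (0.33 ± 0.07, adjusted p = 0.0136), under the fold limit. The 76 cytosolic ribosomal protein genes likewise had no call, with 75 above 0, a median of 0.23 and 32 at an unadjusted p under 0.05. After a correction for GC content and exon length the 2 medians were 0.23 and 0.20.

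Nuclear long noncoding RNAs NEAT1 and MALAT1 were both called lower in Adh. NEAT1, the scaffold RNA of nuclear paraspeckles, went from 50.2, 110, 69.2 and 65.3 CPM to 31.3, 36.5, 25.7 and 26.2 CPM (-1.29 ± 0.20, adjusted p = 0.00133). Its neighbour MALAT1, an abundant RNA of nuclear speckles, went from 55.6, 107, 65.7 and 78.3 CPM to 29.1, 37.5, 54.1 and 25.5 CPM (-1.07 ± 0.22, adjusted p = 0.0113). The MALAT1 groups lay within 1.5 CPM of each other at their edges, Sep replicate 2 was the highest for both RNAs, and without it the adjusted p for MALAT1 was 0.0569. LENG8 and the splicing regulators CCNL1 and CCNL2 fell by 1.02, 0.59 and 0.61 on the log2 scale (adjusted p = 0.00667, 0.00087 and 0.000531), and DDX39B, an RNA helicase of mRNA export, fell by 0.67 (adjusted p = 0.00287). CCNL1, CCNL2 and DDX39B dropped under the fold limit without Sep replicate 2. CCNL1 also did so without Sep replicate 1 and without Adh replicate 3. GOLGA8A fell from 86.1, 135, 95.1 and 103 CPM to 53.4, 60.5, 60.0 and 52.7 CPM (-0.89 ± 0.13, adjusted p = 0.00116) and GOLGA8B, its near-identical neighbour on chromosome 15, by 0.92 (adjusted p = 0.000815), so that reads between these copies are uncertain. RN7SL2, the RNA of the signal recognition particle, had 10.2, 29.2, 41.4 and 26.6 CPM in Sep and 3.61, 2.60, 14.3 and 5.90 CPM in Adh, and its groups overlapped at 10.2 and 14.3 CPM (-2.08 ± 0.43, adjusted p = 0.0123). Its near-identical copies make this value uncertain.

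By annotated class, 17 of 400 tested antisense genes fell (4.25%) and none rose, and the class had a median log2 change of -0.27. Sense-intronic RNAs had 6 of 72 fall (8.33%), none rise and a median of -0.39, and lincRNAs had 9 of 342 fall (2.63%), 2 rise and a median of -0.14. Pseudogenes other than processed ones had 24 of 298 fall (8.05%), none rise and a median of -0.29. Processed pseudogenes, spliced copies with similarly low levels (median 1.6 CPM against 1.51 CPM for antisense genes), had 1 of 254 fall (0.394%), none rise and a median of 0.12. Protein-coding genes of the nucleus had 69 risers (0.614%) and 150 fallers (1.34%) of 11230 and a median of 0.01. The antisense share of human counts was 0.200 to 0.244% in Sep and 0.176 to 0.186% in Adh, and the sense-intronic share 0.0319 to 0.0449% and 0.0234 to 0.0272% (each two-sided exact permutation p = 0.0286, 0.05 after adjustment). These tests, like that of the mitochondrial share, were not planned and add no separate support to the calls. The library kit does not mark strand, so reads of an antisense gene and of its partner cannot be told apart. CYP4F29P, a pseudogene on chromosome 21, fell from 23.8 to 30.9 CPM to 5.40 to 10.6 CPM (-1.76 ± 0.21, adjusted p = 0.000235).

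**Figure D4:**
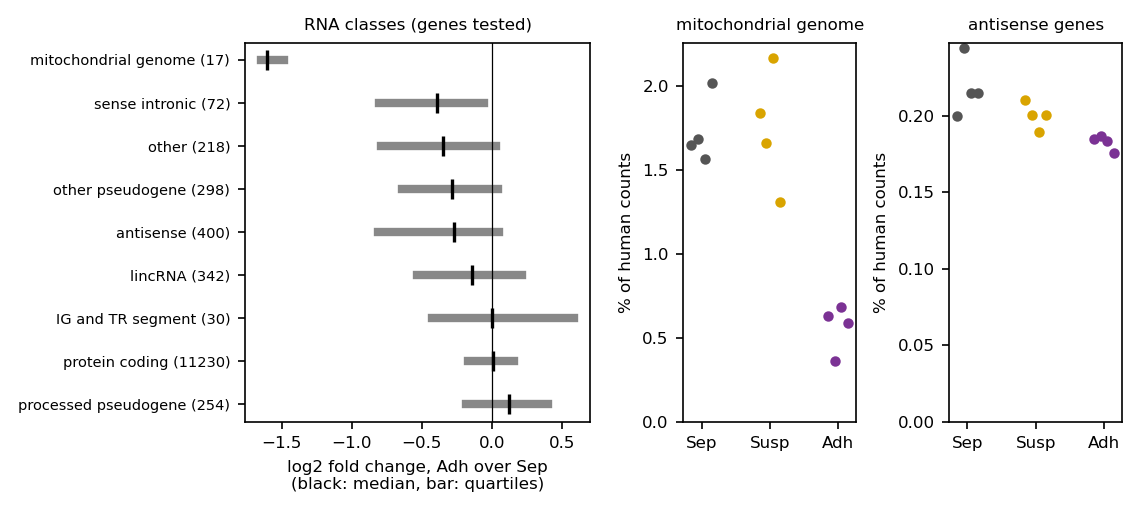
Left, the median (black) and quartiles (grey bar) of the log2 fold change of Adh over Sep for each annotated RNA class, with the number of genes tested, and right, the percent of human counts on the mitochondrial genome and on antisense genes in each Sep, Susp and Adh library. Adh mitochondrial shares lie at 0.362 to 0.683%, below all Sep and Susp libraries, and sense-intronic RNAs have the lowest median of the nuclear classes at -0.39.

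Growth and stress programmes gave few calls. Neither 24 S phase genes (median 0.08) nor 24 mitosis genes (median -0.10) held a gene that passed both limits. An unadjusted p under 0.05 was found for 5 (S phase) and 6 (mitosis) of them, against 20.2% of all tested genes. POLE, the catalytic subunit of DNA polymerase epsilon, had the smallest p of the S phase genes at 252 ± 28.8 and 178 ± 11.7 CPM (-0.50 ± 0.10, adjusted p = 0.0117), under the fold limit, and CENPF, a kinetochore protein, that of the mitosis genes at 428 ± 36.5 and 295 ± 35.9 CPM (-0.54 ± 0.16, adjusted p = 0.0727). Glycolysis and hypoxia genes (31 tested, median 0.19) and heat shock and chaperone genes (24 tested, median 0.15) had no call, with 12 and 8 at an unadjusted p under 0.05. In each case the most significant member, GAPDH at 906 ± 41.7 and 1143 ± 71.5 CPM (adjusted p = 0.0318) and the mitochondrial chaperonin HSPD1 at 949 ± 61.3 and 1139 ± 68.0 CPM (adjusted p = 0.0554), differed by less than 1.5-fold. Of 27 ATF4 and amino acid stress genes (median 0.18), asparagine synthetase ASNS rose, from 49, 45.5, 41.7 and 46.7 CPM to 65.1, 64.7, 83.4 and 66.2 CPM (0.61 ± 0.10, adjusted p = 0.00239). Adh replicate 3 was the highest, and without it or Sep replicate 3 the gene was under the fold limit, as it was after the GC content and exon length correction (0.53). ASNS also had 27666 mouse and 2703 human counts over the Adh libraries.

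Signalling lists tied to B cell activation had no call by edgeR. NF-kB targets (31 tested) had a median log2 change of 0.00 with 9 at an unadjusted p under 0.05, led by SOD2, a mitochondrial superoxide dismutase, at 115 ± 5.68 and 148 ± 10.1 CPM (0.36 ± 0.08, adjusted p = 0.0214). BCR and immediate early response genes (27 tested) had a median of 0.15 with 8 at an unadjusted p under 0.05. EGR1, an immediate early factor, had 16.4 ± 2.00 and 18.1 ± 2.48 CPM (0.14 ± 0.13, adjusted p = 0.607), and its relative EGR3 had 1.52 ± 0.369 and 3.17 ± 0.716 CPM (1.03 ± 0.31, adjusted p = 0.0774). NFKB1 had 174 ± 4.57 and 144 ± 2.31 CPM (-0.27 ± 0.07, adjusted p = 0.0563), with every Adh library below every Sep library, and CCL4, a chemokine released on BCR engagement, 9.60 ± 2.27 and 13.8 ± 2.79 CPM (0.53 ± 0.22, adjusted p = 0.187). BTK, the kinase downstream of the BCR, had 335 ± 37.4 and 324 ± 9.72 CPM (-0.05 ± 0.08, adjusted p = 0.786). No call was made among 25 NOTCH pathway genes (median -0.08, 5 at an unadjusted p under 0.05), 27 B cell identity factors (median -0.02, 5), 15 BCL2 family genes (median 0.08, 3) or 15 MHC class I presentation genes (median 0.01, 4), against 20.2% of all tested genes at that p. POU2F2, a B cell octamer factor, and PSMB8, an immunoproteasome subunit, passed the p threshold under the fold limit (-0.47 ± 0.10, adjusted p = 0.0198, and 0.50 ± 0.12, adjusted p = 0.0362).

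The named genes that follow in this paragraph were not called between Adh and Sep. IL10RA, the ligand-binding chain of the interleukin-10 receptor, passed the p threshold alone, at 266 ± 18.9 CPM (SD, n = 4) in Sep and 349 ± 29.0 CPM in Adh (log2 change 0.39 ± 0.08, adjusted p = 0.0170). Its groups did not overlap, and the same held for BMP5, a bone morphogenetic protein, at 13 ± 2.18 and 18.8 ± 2.23 CPM (0.53 ± 0.16, adjusted p = 0.0693), and for CD48, an adhesion ligand of the SLAM family, at 69.2 ± 7.50 and 85.7 ± 2.48 CPM (0.31 ± 0.10, adjusted p = 0.104). The groups of CD83, TRAF1, NFKBIE, DUSP2, CCL3, CD79A, PLEK and HOXA13 overlapped, with log2 changes from -0.27 ± 0.12 for NFKBIE, an inhibitor of NF-kB, to 0.89 ± 0.38 for HOXA13, a homeobox factor near 1.14 CPM in Sep. CD83, an activation marker of B cells, had 266 ± 18.5 and 266 ± 12 CPM, and its log2 change had a standard error of 0.08.

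**Figure D5:**
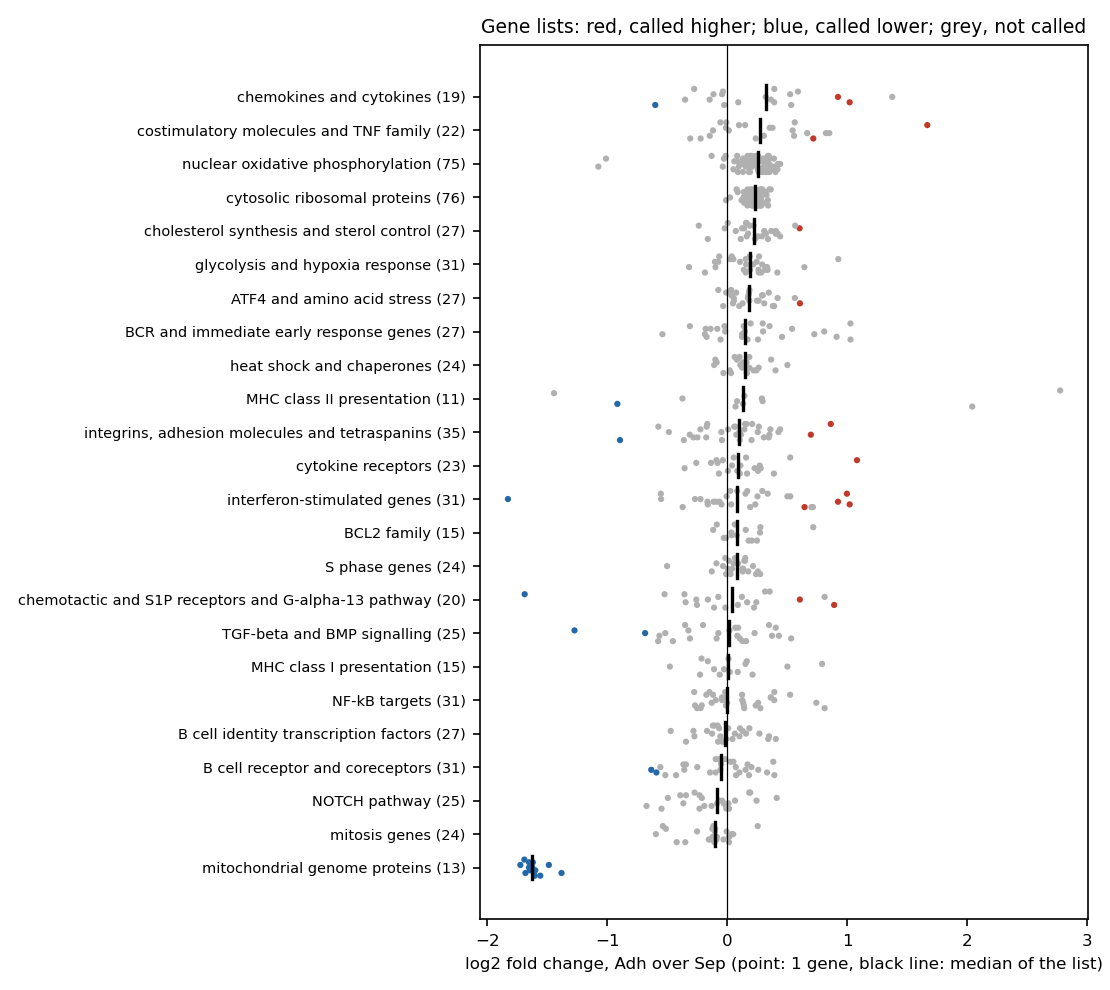
Log2 fold change of Adh over Sep (x axis) for the tested members of each gene list (y axis, number tested in parentheses), 1 point per gene, with calls in red (higher) or blue (lower) and the list median as a black line. The 13 mitochondrial genome proteins stand apart at a median of -1.62, while the nuclear oxidative phosphorylation and ribosomal protein lists have medians of 0.26 and 0.23 with no call. Members of the nuclear oxidative phosphorylation list run from -1.07 to 0.44.

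The change from Sep to Adh can be set beside the Susp libraries, in contrasts that share its Adh or its Sep libraries and so are not independent of it. Adh against Susp gave 100 calls (0.778%), 14 higher (0.109%) and 86 lower (0.669%) in Adh, and Susp against Sep gave 94 (0.731%), 55 higher (0.428%) and 39 lower (0.303%) in Susp. For CD86 the log2 change was 1.67 from Sep to Adh, 1.73 from Sep to Susp and -0.06 from Susp to Adh, and for CXCL10 the values were 1.02, 1.05 and -0.03. SKIL had -1.27, -1.53 and 0.26, S1PR2 had -1.69, -1.86 and 0.17, LAPTM5 had -0.87, -0.99 and 0.12, and CIITA had -0.91, -0.82 and -0.10. In these genes the suspended cells of the coculture stood at nearly the level of the attached cells. MT-CO1 had -1.64, -0.01 and -1.64, NLRP11 had 0.74, 0.04 and 0.70, HAPLN1 had 0.86, -0.07 and 0.93, and CCNL2 had -0.61, 0.04 and -0.65, so that their suspended cells stood at nearly the level of the cells grown alone. MGLL had 0.86, 0.44 and 0.41 and SPN had -0.89, -0.40 and -0.49, with Susp about midway and neither of the part-way contrasts called. For SPN both part-way contrasts passed the p threshold (edgeR adjusted p = 0.0294 for Susp against Sep and 0.0111 for Adh against Susp) and missed only the fold limit. RGS13 had 0.35, -0.77 and 1.13 and CD44 had 0.43, -0.43 and 0.86, with Susp below both other groups on average, and their Adh against Susp differences were called (adjusted p = 2.8e-05 and 0.00048).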

How the data were processed

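Paired-end reads from poly(A)-selected libraries (TruSeq v2, not stranded) were split by species with Xenome, aligned to GRCh38 or GRCm38 with STAR 2.5.1b keeping unique alignments, and counted per gene with featureCounts (Subread 1.5.2) by the authors, who deposited raw counts. The table holds 20 columns of other samples that were not used. The 12 REC-1 libraries were fitted together without a block, following the study's edgeR workflow: 12861 of 58051 genes passed filterByExpr, TMM scaling was applied, and glmQLFTest in edgeR 4.0.16 (R 4.3.3) gave p-values with Benjamini-Hochberg adjustment over all tested genes. A call required both an adjusted p no larger than 0.05 and a change of 1.5-fold or more. The SE beside a log2 change was derived from the test, as the absolute change divided by the square root of its F statistic. DESeq2 1.42.0 was an alternative. The fit was tested on simulated data.

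Counts of 2 were 2.11 to 3.27 times as frequent as counts of 1 within a library, so that single counts may not be independent fragments, and halved counts were tried. The precision follows the depth: human totals were lowest in Adh replicates 3 and 4. Replicate numbers are shared between groups, but nothing in the labels says what a number stands for, so the samples were not treated as paired. Gene positions came from GENCODE release 44, which matched 56948 of 58051 genes. Other contrasts share these libraries.

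Lists and members were chosen with earlier results of these data known. Named genes were the 12 largest rises and 12 largest falls among calls at 10 CPM or more with groups that did not overlap, up to 4 called members of each list (or, with none, the member of smallest p), and genes the study discussed. Listed with the last set were CD86, S1PR2, IL7R, RGS13, CD44, HAPLN1 and BMP5, which the study's text does not name. Genes added after their values were seen were EMILIN2, TNFRSF18, LRRC32, NLRP11, PIM2, LCK, PIK3CG, SLC39A8, SRGN, FADS1, PDE4A, MX2, MZB1, ELK3, TMEM132B, CR1, CD180, TLR2, LILRA4, PTPN7, CNR1, CHI3L2, CPT1A, LAPTM5, MALAT1, NEAT1, CCNL1, CCNL2, LENG8, GOLGA8A, GOLGA8B, DDX39B, MT-RNR2 and the mitochondrial pseudogenes MTND2P28 and MTCO1P12. Alternatives covered normalization, filters, tool, GC content and exon length, model terms and left-out libraries. 1 added gene is not reported here.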

Additional observations from a re-analysis of the deposited data

Results flagged for a closer look

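Within the groups of 4 libraries, 242 sets were examined, each a named gene or a library measure in 1 group. In 15 of them, all genes, a library was set apart from the other 3 by Dixon's criterion, where chance sets apart about 1 in 20. Among the Adh libraries, replicates 2 and 3 supplied 4 each. Adh replicate 2 was the low library for the mitochondrial genes MT-ATP6 (243 CPM), MT-ATP8 (52.2 CPM) and MT-ND1 (111 CPM) and for the nuclear copy MTND2P28 (4.24 CPM), and these share reads or a genome and so do not count as separate observations. Adh replicate 3, the shallowest library, was low for CD3E (2.57 CPM), CCL3 (1.16 CPM) and TAGLN (2.96 CPM) and high for ASNS (83.4 CPM). Adh replicate 4 was low for TSPAN13 (8.98 CPM), and Adh replicate 1 for EGR3 (2.10 CPM). Among the Sep libraries, replicate 2 was high for TSPAN13 (8.70 CPM) and DDX39B (113 CPM), replicate 1 for LAPTM5 (87.5 CPM) and replicate 4 for TNFRSF18 (1.04 CPM), and replicate 3 was low for EGR1 (13.4 CPM).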

How the results depend on the processing

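The number of genes called between Adh and Sep, 309 with 75 higher and 234 lower, was 527, 129 and 398 with DESeq2 and 503, 98 and 405 without a filter on low counts. Genes called higher were 143 without a fold minimum, 116 after a GC content and exon length correction and 114 after that correction with the replicate block. With libraries left out singly or by replicate number, the counts ranged from 92 to 519 in all, from 22 to 128 higher and from 69 to 403 lower, with 105 and 92 in all without replicates 3 and 4, and the mitochondrial share difference of -1.16 points ranged from -1.26 to -1.08. With replicate number as a block, 384 genes were called (90 higher and 294 lower) and no named gene changed its call. Same-numbered Adh and Sep libraries, which share only a number in the labels, correlated at 0.31, 0.13, -0.0022 and 0.20, and 6 of 8 libraries correlated best with their own number. Of 75 named genes called, 39 kept their call under every alternative run on them and none turned sign. Among settings that left no library out, the correction for GC content and exon length ended the calls of ASNS, INSIG1, RGS2, CSF1 and MZB1 by fold. Of 39 not called, 5 turned sign near 0. CD83 (0.00054) was -0.0037 with upper-quartile scaling, -0.0076 without the filter, -0.012 with at least 10 counts in every library, -0.064 after GC correction with or without the block and -0.0033 with halved counts. The log2 fold change of PLEK (0.026) was -0.046 after GC correction and -0.047 with the block added. With libraries left out, DUSP2 ranged from -0.012 to 0.24, PLEK from -0.0088 to 0.053, CD83 from -0.030 to 0.055, ICAM1 from -0.11 to 0.011 and BTK from -0.095 to 0.035. The causes were not tested. Halving the counts, leaving out each single REC-1 library other than Susp replicate 2, and the list medians under other scalings were chosen after seeing the data. Depth limits low genes most, since Adh replicates 3 and 4 held 7758979 and 7890759 human counts.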

Other observations

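Lymphoid genes outside the lists also gave calls close to the limits. MZB1, a chaperone of immunoglobulin assembly in the endoplasmic reticulum, had 54.0 to 69.4 CPM in Sep and 82.8 to 104 CPM in Adh (log2 change 0.59 ± 0.15, SE, edgeR adjusted p = 0.0361), and lost the call in 7 of 12 fits that left out 1 library and, by fold, after a correction for GC content and exon length (0.58). LCK, a SRC family kinase best known in T cells, had 4.92 to 6.86 CPM in Sep and 8.57 to 10.2 CPM in Adh (0.61 ± 0.16, edgeR adjusted p = 0.0438), and lost it in 10 of 12. The T cell marker CD3E, which was not called, had 3.27 ± 0.661 CPM (SD, n = 4) in Sep and 5.30 ± 1.83 CPM in Adh, and CD2 had 0 counts in all 8 libraries. LILRA4, an inhibitory receptor known from plasmacytoid dendritic cells, fell from 223 to 247 CPM to 134 to 170 CPM (-0.59 ± 0.10, edgeR adjusted p = 0.00331), and dropped under the fold limit in 4 of 12 fits. SNORA73B, a small nucleolar RNA, fell from 1.99 to 3.85 CPM to 0.601 to 1.54 CPM (-1.38 ± 0.35, edgeR adjusted p = 0.0412), a call lost in 9 of 12.

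The log2 change also varied with properties of the genes. Its median ran from -0.17 in the 20% of tested genes with the lowest mean CPM to 0.05 in the 20% with the highest, from 0.07 in the 20% with the shortest exons to -0.08 in the 20% with the longest, and from 0.01 in the 20% of lowest GC content to -0.07 in the 20% of highest.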
